A study of Mus musculus with 4 samples.

Results

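The Slc2a genes encode the facilitative glucose transporters (Glut proteins), and 9 of them, Slc2a1, Slc2a3, Slc2a4, Slc2a6, Slc2a8, Slc2a9, Slc2a10, Slc2a12 and Slc2a13, were followed by name through every cell class and library, out of 32285 genes counted. The files hold 12 Slc2a genes in all, and the other 3 were close to absent: in all kept cells Slc2a2 had 16, 11, 6 and 2 UMIs, Slc2a5 had 27, 29, 23 and 17, and Slc2a7 had 0, 0, 1 and 1, in the order of the libraries given next. Cells of the presumptive knee joint region of mouse embryo hindlimbs went through droplet scRNA-seq, giving 4 libraries, 1 per condition. The E13.5 control and the E14.5 control are titled wild type, with a genotype entry of no Cre. The E14.5 library labelled Prx1Cre;Glut1f/f;Glut3f/+ is described as having both Glut1 (Slc2a1) alleles and 1 Glut3 (Slc2a3) allele floxed, with 1 Glut3 allele intact. The E14.5 library labelled DCKO (double conditional knockout) is described as Prx1Cre;Glut1f/f;Glut3f/f, with both alleles of both genes floxed. Prx1Cre is active in early limb mesenchyme, from which cartilage, interzone, tendon and connective tissue descend, and not in the sources of muscle fibers, endothelium or blood. The number of embryos in each library is not given in the sources used here.

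Most Glut proteins, though not the proton-coupled carrier encoded by Slc2a13, let hexoses and related polyols pass the membrane down their concentration gradient. Uptake then depends on how many carriers sit in the membrane and on how fast the cell phosphorylates the sugar. Members differ in affinity, in substrate and in where they reside, from the cell surface to endosomes and lysosomes. Developing cartilage has no blood vessels and relies heavily on glycolysis for energy. A family with many members raises the question of whether others rise where Slc2a1 and Slc2a3 are targeted.

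In the order E13.5 control, E14.5 control, the library labelled Prx1Cre;Glut1f/f;Glut3f/+, then the library labelled DCKO, the libraries held 100344565, 84188147, 97110697 and 91574038 UMIs (unique molecular identifiers, each counting 1 captured mRNA molecule at its 3' end). Kept cells numbered 12446, 9305, 11264 and 11305, with medians of 6176.5, 7279, 6757 and 6379 UMIs. Libraries shared 24 to 37 cell barcodes per pair, at most 0.355% of the cells of either library. The libraries differed in sex-linked transcripts. Xist was detected in 64.7%, 0.172%, 92.2% and 91.2% of the kept cells, and Y-linked genes in 18.4%, 65.9%, 0.0355% and 0.0265%. The E14.5 control thus read as male and both mutant libraries as female, so that sex and genotype cannot be told apart at E14.5, while the E13.5 control held cells of both kinds.

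A further point stands before the results. Slc2a1, the gene that both mutant genotypes target, was higher in both mutant libraries than in the control, which goes against the labels as far as mRNA level goes. The share of interzone cells, a class set out below, ran with the labels. It was 7.90% of kept cells in the E14.5 control, 6.86% under the label Prx1Cre;Glut1f/f;Glut3f/+ and 2.84% under the label DCKO. The paper reports the same order for the share of Gdf5-expressing cells. The libraries are therefore called by their labels ("the library labelled DCKO"), and every direction below is that of a labelled library. UMIs tag the 3' end of a transcript, and a 3' UMI outside the deleted part of a gene checks nothing about the deletion. The positions of the loxP sites are not given in the sources used here.

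Cells were sorted into classes by how many genes of a marker list they had detected. The class "limb mesenchyme" pools interzone, chondrocyte, prehypertrophic chondrocyte, osteogenic, fibroblast and tendon cells and held 5558, 6646, 7325 and 7341 cells. The class "other lineages" pools skeletal muscle, endothelial, macrophage and erythroid cells and held 966, 380, 485 and 249. All cells of a class were added up, gene by gene, and the sums divided by the total of that class, giving CPM, the count of a gene relative to all UMIs of the class. Since each UMI is 1 molecule whatever the length of the transcript, levels of different members are compared on this scale. Brackets hold 95% intervals, which cover counting error only, and with 1 library per condition no difference has a replicate check.

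Slc2a1 (ENSMUSG00000028645, GRCm38 chr4:119108711-119137983, plus strand), which encodes Glut1, the carrier of basal glucose uptake in most cells, was the most abundant member. In limb mesenchyme it stood at 62.7 CPM [60.4, 64.9] in the E13.5 control and 73.3 CPM [71.2, 75.5] in the E14.5 control, and was higher at 400.5 CPM [396, 405] in the E14.5 library labelled Prx1Cre;Glut1f/f;Glut3f/+ and higher again at 465 CPM [459.9, 470.02] under the label DCKO. Both mutant libraries lay far above both controls, with no overlap of the intervals. The level was 6.34-fold [6.15, 6.54] that of the E14.5 control in the library labelled DCKO, a log2 ratio of 2.67 [2.62, 2.71], and 5.46-fold [5.30, 5.64] in the E14.5 library labelled Prx1Cre;Glut1f/f;Glut3f/+, a log2 ratio of 2.45 [2.40, 2.50]. Between the mutant libraries the log2 ratio was 0.22 [0.19, 0.24] with the library labelled DCKO higher. Among genes with at least 20 UMIs in 1 of the sums compared, Slc2a1 had the 36th highest ratio of 15012 in the first comparison and the 35th highest of 15084 in the second.

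Every class of limb origin showed this difference, in each case in a labelled library and not as a checked deletion. Prehypertrophic chondrocytes, the cells that signal the turn to hypertrophy through Ihh, had 106, 90.9, 515 and 622 CPM, in the order of libraries used above. Chondrocytes had 80.9, 83.4, 489 and 492 CPM. Interzone cells, the Gdf5-expressing cells of the future joint space, had 49.0, 41.2, 172 and 175 CPM. These 3 classes kept the same order within every library, from prehypertrophic chondrocytes down to interzone cells, although the intervals of the first 2 overlapped in the E14.5 control and looser gates turned their order at E13.5, to a log2 ratio of -0.10.

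The other limb classes had lower values. Fibroblasts had 28.3, 27.3, 106 and 143 CPM, tendon cells 27.6, 41.0, 125 and 162, and osteogenic cells 29.3, 15.8, 68.0 and 78.2. The intervals of fibroblasts and tendon cells overlapped in every library, and those of fibroblasts and osteogenic cells in both controls. Tendon cells also overlapped with interzone cells in both controls and in the library labelled DCKO, where fibroblasts did too. As log2 ratios to the E14.5 control, the library labelled DCKO ran from 1.98 [1.42, 2.55] in tendon cells to 2.78 [2.63, 2.93] in prehypertrophic chondrocytes, and the library labelled Prx1Cre;Glut1f/f;Glut3f/+ from 1.61 [1.11, 2.12] in tendon cells to 2.55 [2.50, 2.61] in chondrocytes.

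**Figure D1:**
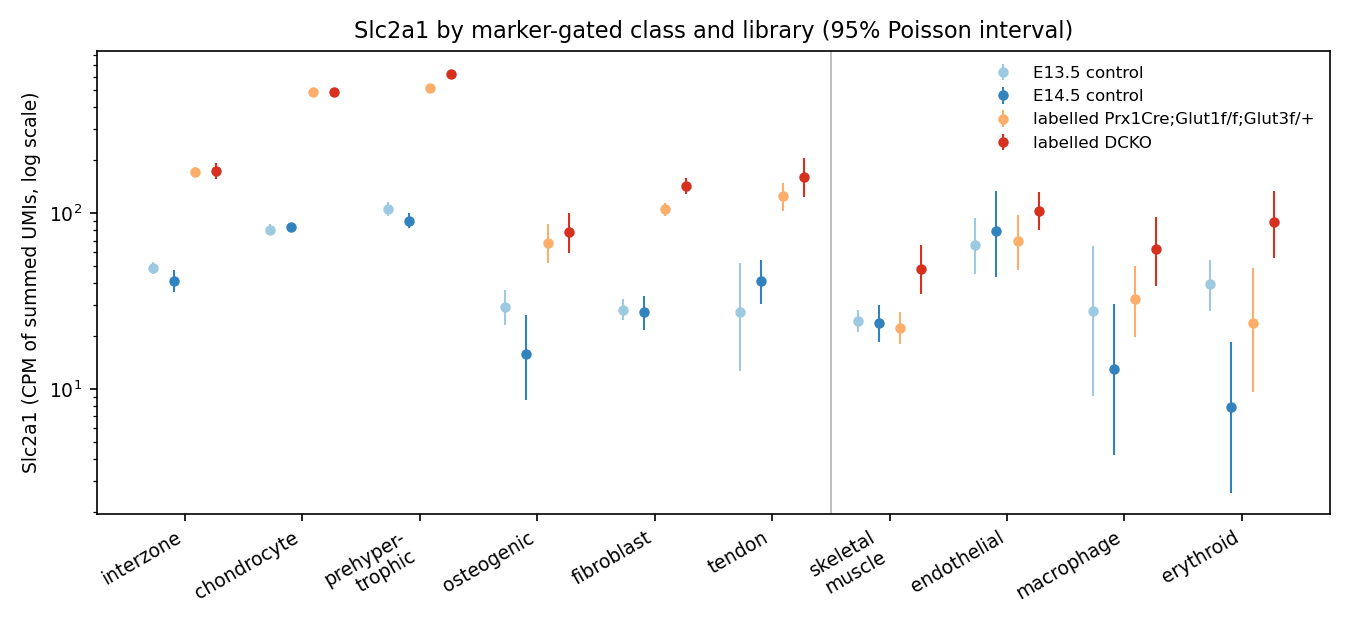
Slc2a1 level (CPM of summed UMIs, log axis) in the 6 classes of limb origin, left of the line, and the 4 other classes, right of it, with 1 point per library and bars for the 95% Poisson interval. In limb classes both libraries labelled as mutant lie above both controls (chondrocytes 489 and 492 against 80.9 and 83.4 CPM), while skeletal muscle of the E14.5 library with the label Prx1Cre;Glut1f/f;Glut3f/+ (22.4 CPM) lies beside that of the E14.5 control (23.9 CPM).

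Classes that do not descend from Prx1Cre-expressing mesenchyme show what the same libraries held outside it. Skeletal muscle had 24.3, 23.9, 22.4 and 48.5 CPM of Slc2a1. The value of the library labelled DCKO rested on 1 cell, which held 20 of the 40 UMIs, and without the top cell of each sum it was 24.7 CPM against 22.6 CPM in the E14.5 control, a log2 ratio of 0.13 [-0.67, 0.86]. Endothelial cells had 66.3, 79.9, 69.6 and 104 CPM, with a log2 ratio of 0.38 [-0.47, 1.32] for the library labelled DCKO. Muscle and endothelium thus showed no difference detectable at this depth once that cell was left out.

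Blood cells differed. Macrophages had 28.0, 13.1, 32.4 and 62.5 CPM and erythroid cells 39.5, 7.95, 23.8 and 88.8 CPM, from 5, 5, 20 and 21 UMIs and from 37, 5, 7 and 22 UMIs. Of the 37 UMIs of E13.5 erythroid cells, 30 came from 1 cell. Against the E14.5 control, the library labelled DCKO had a log2 ratio of 2.26 [0.81, 4.02] in macrophages and 3.48 [2.05, 5.24] in erythroid cells, and without the top cell of each sum 2.55 [0.74, 4.97] and 3.86 [2.07, 6.28]. Scaling moved the erythroid ratio beyond its interval, to 1.57 with TMM and 1.52 with median-of-ratios factors, and left the macrophage ratio at 2.27 and 2.28. These are higher levels in classes outside limb mesenchyme, resting on few molecules. Some of the cells with most Slc2a1 also held markers of other classes. The E13.5 erythroid cell with 30 UMIs did not, with 10 erythroid markers and 0 of any other class. The top erythroid cell of each mutant library, with 5 Slc2a1 UMIs, had 7 of the 11 chondrocyte markers and 3 of the 8 fibroblast markers, where the median erythroid cell of these libraries had 0.5 and 0 chondrocyte markers. In the library labelled DCKO the muscle cell with 20 UMIs had 6 chondrocyte markers and the top endothelial cell, with 14 UMIs, had 7, each against a class median of 1, while the top macrophage had 0.

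For the 4 classes pooled as other lineages, Slc2a1 stood at 27.8, 22.9, 27.7 and 72.7 CPM. The log2 ratio of the E14.5 library with the label Prx1Cre;Glut1f/f;Glut3f/+ to the E14.5 control was 2.17 [1.80, 2.55] larger in limb mesenchyme than in other lineages and 2.54 [2.09, 2.99] larger than in muscle. In the library labelled DCKO the ratio was 0.997 [0.62, 1.37] larger in limb mesenchyme than in other lineages, or 0.56 with cells of several gates kept, and 1.64 [1.08, 2.20] larger than in muscle, or 2.54 without the top cell of each sum. The make-up of the pool of other lineages differed between libraries. Muscle gave 222 of its 380 cells in the E14.5 control and 82 of 249 in the library labelled DCKO, and endothelium 25 and 69. Ratios of this pool thus mix class shares with levels. Between the pools as they stand, the rise of Slc2a1 was larger in limb mesenchyme in both labelled libraries, by more than counting error, which does not cover class shares. It was not shown to be larger than in every single class, since in the library labelled DCKO the macrophage interval included the ratio of limb mesenchyme (2.67) and the erythroid ratio lay above it by CPM (3.48) but below it with TMM factors (1.57 against 2.86). For interzone, osteogenic and tendon cells taken alone in that library the differences to the same pool of other lineages were 0.42 [-0.03, 0.87], 0.64 [-0.28, 1.56] and 0.31 [-0.34, 0.97].

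Free RNA in the droplets sets a limit on such values. In erythroid cells Col2a1, a cartilage collagen that these cells do not make, reached 1.89%, 0.657%, 2.03% and 1.41% of its level in chondrocytes. Slc2a1 in erythroid cells reached 48.8%, 9.54%, 4.87% and 18.1% of its chondrocyte level, above the shares of Col2a1 in every library. The share of 48.8% at E13.5 rests mainly on the 1 cell that held 30 of the 37 UMIs. The part of free RNA and of mixed droplets in the blood cell values was not tested.

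In limb mesenchyme the share of single cells with a Slc2a1 UMI had the same order over the libraries as the level. With each cell thinned to 2000 UMIs, which left out 52, 92, 76 and 59 shallower cells, 10.98%, 13.2%, 44.1% and 51.6% of limb mesenchyme cells would hold a Slc2a1 UMI. Unthinned, the shares were 34.2%, 42.8%, 76.7% and 84.4%, at median depths of 7089.5, 8094, 7945 and 7960 UMIs. In erythroid cells the thinned shares were 2.69%, 2.29%, 2.26% and 14.49% and unthinned 6 of 126, 4 of 77, 3 of 40 and 9 of 34 cells held one, at median depths of 7258.5, 8616, 6408 and 7136.5 UMIs. In skeletal muscle the thinned shares were 4.59%, 4.38%, 4.22% and 6.12%. Limb mesenchyme stood above both classes in every library.

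Since the gates use cartilage genes, Slc2a1 was also followed along the number of the 11 chondrocyte markers detected per cell. This took in all kept cells that passed no gate of muscle, endothelial, macrophage or erythroid cells. In the E14.5 control it rose from 25.6 CPM in cells with 0 or 1 marker to 85.2 CPM in cells with 10 or 11. The library labelled Prx1Cre;Glut1f/f;Glut3f/+ rose from 101 to 463 CPM and the library labelled DCKO from 128 to 497 CPM over the same steps. Each step of the library labelled DCKO was 4.996 to 8.53 times the control, and each step of the other mutant library 3.47 to 7.20 times. Cells with more markers also had more UMIs, with medians from 4455 to 9721.5 in the E14.5 control, so depth and marker number moved together.

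**Figure D2:**
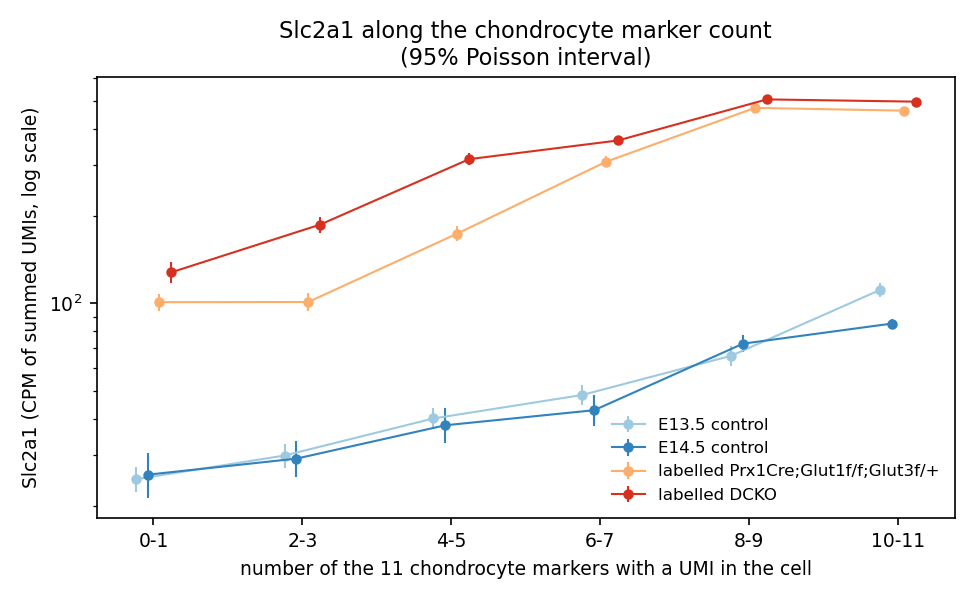
Slc2a1 level (CPM of summed UMIs, log axis) against the number of the 11 chondrocyte markers with a UMI in the cell, with 1 line per library and bars for the 95% Poisson interval. Levels rise with marker number up to 8 or 9 markers in all 4 libraries, and both libraries labelled as mutant lie above both controls at every step (128 and 101 against 25.6 and 24.7 CPM at the lowest step).

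Slc2a3 (ENSMUSG00000003153, chr6:122727809-122801640, minus strand) encodes Glut3, a high-affinity carrier best known from neurons, and is the second targeted gene. In limb mesenchyme it had 5.40 CPM [4.76, 6.097] and 3.22 CPM [2.79, 3.70] in the controls of E13.5 and E14.5, 3.91 CPM [3.46, 4.40] in the E14.5 library labelled Prx1Cre;Glut1f/f;Glut3f/+, and the library labelled DCKO had 2.17 CPM [1.84, 2.54], from 259, 202, 272 and 151 UMIs. The library labelled DCKO was the lowest and the E13.5 control the highest, and no interval of these 2 overlapped with another library's. In contrast to Slc2a1, Slc2a3 was thus lower in the library whose label names both of its alleles as floxed, though it was not absent.

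The log2 ratio of Slc2a3 in limb mesenchyme was -0.57 [-0.89, -0.26] for the library labelled DCKO against the E14.5 control and -0.85 [-1.15, -0.56] against the other mutant library. A single fibroblast-gated cell held 33 of the 151 UMIs, and without the top cell of each sum the ratios were -0.91 [-1.25, -0.58] and -1.09 [-1.42, -0.77]. The library labelled Prx1Cre;Glut1f/f;Glut3f/+ stood at 0.28 [0.01, 0.55] against the control, and at 0.18 [-0.10, 0.45] without the top cells, so that no lower level of Slc2a3 was detectable there. Chondrocytes, with 4.77, 2.77, 4.12 and 1.80 CPM, gave -0.62 [-1.05, -0.20] for the library labelled DCKO and 0.58 [0.21, 0.94] for the other mutant library against the E14.5 control, or -0.82 and 0.40 without the top cells.

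In fibroblasts Slc2a3 read 7.45, 6.43, 4.64 and 14.9 CPM. The last value came from the same single cell, which held 33 of 41 UMIs and had 6224 UMIs in all, with 7 of the 8 fibroblast markers detected. Without the top cell of each sum, fibroblasts of the library labelled DCKO had 2.92 CPM against 5.80 CPM in the E14.5 control, a log2 ratio of -0.99 [-2.40, 0.28]. Single cells rich in Slc2a3 were seen in other libraries too: a prehypertrophic chondrocyte and an interzone cell of the E13.5 control held 11 UMIs each, and a chondrocyte of the E14.5 library with the label Prx1Cre;Glut1f/f;Glut3f/+ held 21. Macrophages of the library labelled DCKO had the highest Slc2a3 level of any class, 26.8 CPM [12.3, 50.9], from 9 UMIs.

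**Figure D3:**
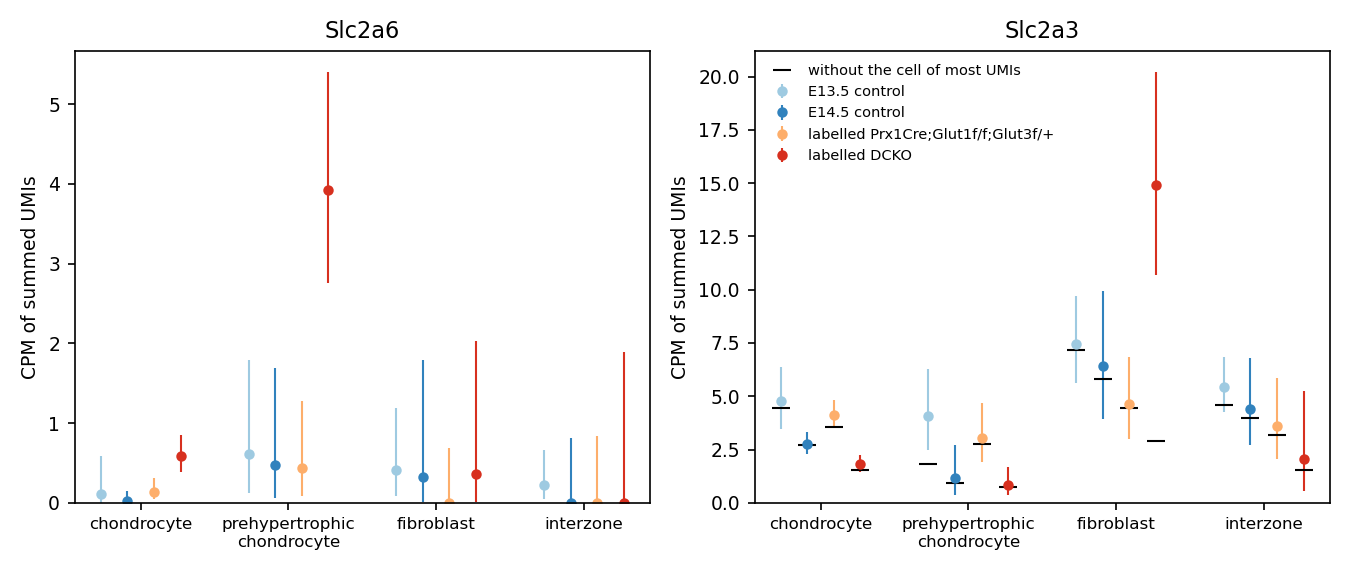
Levels of Slc2a6 (left) and Slc2a3 (right) as CPM of summed UMIs in 4 classes, with 1 point per library, bars for the 95% Poisson interval and, for Slc2a3, a dash for the level without the cell of most UMIs. Of these classes, Slc2a6 is highest in prehypertrophic chondrocytes of the library labelled DCKO (3.92 CPM), and the fibroblast value of Slc2a3 in that library (14.9 CPM) falls to 2.92 CPM without 1 cell.

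Whether the other members rose was read first by count. In limb mesenchyme, 8 of the 9 members reached 20 UMIs in 1 of the sums for the library labelled DCKO against the E14.5 control. Of these, 2, Slc2a1 and Slc2a6, were at least 2-fold higher and 0 at least 2-fold lower, where 1.82% of all genes were that much higher and 5.0% that much lower. Slc2a6 reached the minimum only in the library labelled DCKO. Its entry into the count thus depended on its level there, and the count is no separate support for its rise. Slc2a1 was the only 1 of 7 members past 2-fold in the E14.5 library labelled Prx1Cre;Glut1f/f;Glut3f/+, with 0 lower, against 1.62% of genes higher and 1.29% lower. Slc2a6 was the only 1 of 8 past 2-fold between the mutant libraries, higher in the library labelled DCKO, with 0 lower, against 0.783% and 3.34% of genes. Here too it reached the minimum only in the library labelled DCKO. In prehypertrophic chondrocytes 3 of 6 members, Slc2a1, Slc2a4 and Slc2a6, were past 2-fold higher in the library labelled DCKO and 0 lower, against 3.6% and 5.6% of genes. Slc2a4 and Slc2a6 reached 20 UMIs there only in the library labelled DCKO, so their entry depended on the level counted. The same class with the label Prx1Cre;Glut1f/f;Glut3f/+ also had 3 of 6 members higher, Slc2a1, Slc2a3 and Slc2a4, and 0 lower. Slc2a3 and Slc2a4 reached 20 UMIs only in that library, so their entry again depended on the level counted. No share of all genes was counted there, so this count has nothing to be read against. By log2 ratio to the E14.5 control, prehypertrophic chondrocytes with this label had Slc2a3 at 1.38 [-0.06, 3.15], from 21 against 5 UMIs, and interzone cells of the library labelled DCKO had it at -1.11 [-3.12, 0.47], from 4 against 20 UMIs.

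Scaling bears on small differences. By CPM the median log2 ratio of all genes was -0.20 in limb mesenchyme of the library labelled DCKO against the E14.5 control, -0.17 in its prehypertrophic chondrocytes, -0.09 for the E14.5 library labelled Prx1Cre;Glut1f/f;Glut3f/+ and -0.11 between the mutant libraries. TMM factors (a trimmed mean that centers most genes) moved these medians up by 0.19, 0.21, 0.08 and 0.11. Members near a ratio of 0 by CPM were thus slightly above the middle of all genes.

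Slc2a6 (ENSMUSG00000036067, chr2:27021363-27027998, minus strand) encodes a carrier of lysosomal membranes known from macrophages. It was scarce but had the largest ratio of the members in limb mesenchyme of the library labelled DCKO. The interval of that ratio held the Slc2a1 ratio of 2.67, so that Slc2a6 and Slc2a1 were not separable by counting error. Limb mesenchyme held 16, 8, 13 and 72 UMIs, which is 0.333, 0.128, 0.187 and 1.03 CPM. The library labelled DCKO stood apart from the other 3 without overlap of intervals. The log2 ratio was 3.02 [1.96, 4.28] to the E14.5 control and 2.47 [1.60, 3.44] to the other mutant library. These were the 29th highest ratio of 15012 genes and the 7th highest of 15064. Slc2a6 reached the UMI minimum for this ranking only in the library labelled DCKO. Its entry thus depended on the level being ranked, and the ranks are no separate support for its rise.

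Prehypertrophic chondrocytes held 37 of these 72 UMIs. They had 0.612, 0.469, 0.436 and 3.92 CPM of Slc2a6, from 3, 2, 3 and 37 UMIs, with a log2 ratio of 3.06 [1.11, 6.16] for the library labelled DCKO against the E14.5 control. The 37 UMIs were spread over 34 of 596 cells. In cells with an Ihh UMI that passed no gate of another lineage, the level was 0.667, 0.452, 0.882 and 3.11 CPM. In chondrocyte-gated cells without an Ihh UMI it was 0.117, 0.0267, 0.110 and 0.614 CPM. Both sets of cells were highest in the library labelled DCKO.

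A gate marker itself differed between libraries: Col10a1, a collagen of hypertrophic cartilage, was at 9.62 CPM in limb mesenchyme of the library labelled DCKO against 0.510 CPM in the E14.5 control, and prehypertrophic cells were 5.27% of its kept cells against 2.65%. Macrophage markers were looked at because Slc2a6 is known from macrophages, although the macrophages of these libraries held only 1, 0, 1 and 2 UMIs of it (5.60, 0, 1.62 and 5.95 CPM), too few to set a level. Of the 34 prehypertrophic cells with Slc2a6, 6 had a UMI of at least 1 of the 8 macrophage markers, against 61 of all 596. In limb mesenchyme the 8 macrophage markers, all with a UMI in every library, summed to 2.02, 3.46, 3.92 and 4.25 CPM, with C1qc the most abundant at 1.06, 2.07, 2.59 and 2.87 CPM, and their part in the Slc2a6 level was not tested. Erythroid and endothelial cells had 0 UMIs of Slc2a6 in all 4 libraries, but their small totals would hide levels like those of limb mesenchyme.

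Slc2a4 (ENSMUSG00000018566, chr11:69942539-69948188, minus strand) encodes Glut4, the insulin-responsive carrier of muscle and fat. Its level in limb mesenchyme was 4.40 CPM [3.82, 5.03], 2.28 CPM [1.92, 2.69], 3.71 CPM [3.27, 4.19] and 3.32 CPM [2.90, 3.77]. The E14.5 control was the lowest of the 4, below each other library without overlap, and both mutant libraries lay between the controls. The log2 ratio to the E14.5 control was 0.54 [0.23, 0.85] for the library labelled DCKO and 0.70 [0.40, 1.01] for the library labelled Prx1Cre;Glut1f/f;Glut3f/+. In prehypertrophic chondrocytes, with 4 UMIs in the E14.5 control and 29 and 21 in the mutant libraries, the ratios were 1.71 [0.20, 3.68] and 1.70 [0.14, 3.71]. The E13.5 control had 3.87 CPM in this class, from 19 UMIs, against 0.937 CPM in the E14.5 control. Skeletal muscle, where Glut4 works after birth, had only 5.58, 2.02, 3.28 and 3.64 CPM.

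Slc2a8 (ENSMUSG00000026791, chr2:32972990-32982083, minus strand) encodes Glut8, an intracellular carrier of glucose and other sugars. It was the second most abundant member in limb mesenchyme of the controls and of the E14.5 library with the label Prx1Cre;Glut1f/f;Glut3f/+, with 10.5, 7.83, 8.72 and 7.99 CPM over the 4 libraries. The E14.5 libraries lay close together, with log2 ratios to the control of 0.03 [-0.15, 0.21] and 0.16 [-0.02, 0.33] for the libraries labelled DCKO and Prx1Cre;Glut1f/f;Glut3f/+. Muscle was low at 3.67, 2.35, 2.27 and 1.21 CPM.

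Slc2a10 (ENSMUSG00000027661, chr2:165503787-165519917, plus strand) encodes Glut10, which carries glucose and dehydroascorbate and whose loss in humans causes arterial tortuosity. Limb mesenchyme had 3.48 CPM [2.97, 4.05] at E13.5 and 6.88 CPM [6.24, 7.56], 7.90 CPM [7.26, 8.59] and 8.12 CPM [7.47, 8.82] in the E14.5 libraries. The E13.5 library thus stood further from the E14.5 libraries than these did from each other. The part of age in this was not tested. The log2 ratios to the E14.5 control were 0.24 [0.06, 0.42] for the library labelled DCKO and 0.20 [0.02, 0.39] for the other mutant library. Slc2a10 had 4.14, 8.07, 8.75 and 8.77 CPM in chondrocytes against 2.30, 0.643, 2.23 and 1.45 CPM in fibroblasts and 0.760, 0.336, 0.252 and 0 CPM in muscle, where the last allows up to 3.64 CPM. Tendon and osteogenic cells of the E14.5 control, with 7.53 CPM [3.44, 14.3] and 6.77 CPM [2.49, 14.7] from 9 and 6 UMIs, were not separable from its chondrocytes. Interzone cells were below chondrocytes by log2 ratios of -0.92 [-1.66, -0.19], -1.29 [-2.14, -0.55], -1.27 [-2.10, -0.55] and -3.10 [-6.15, -1.24], the last from 2 UMIs in interzone cells.

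Slc2a12 (ENSMUSG00000037490, chr10:22645011-22704285, plus strand), which encodes Glut12, had 1.56, 1.16, 1.11 and 1.16 CPM in limb mesenchyme and 3.17, 4.71, 3.78 and 2.43 CPM in skeletal muscle. It was higher in muscle in the first 3 libraries, with log2 ratios of limb mesenchyme to muscle of -1.02 [-1.69, -0.30], -2.01 [-2.85, -1.07] and -1.77 [-2.58, -0.87], while muscle of the library labelled DCKO held only 2 UMIs. Neither mutant library differed from the E14.5 control by more than counting error in limb mesenchyme.

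Slc2a13 (ENSMUSG00000036298, chr15:91267696-91573261, minus strand) encodes a proton-coupled carrier of myo-inositol and not of glucose. It was even across libraries in limb mesenchyme, at 6.002, 5.55, 5.52 and 5.34 CPM. Prehypertrophic chondrocytes were above chondrocytes in each library, with 11.4, 8.20, 8.29 and 8.79 CPM against 3.82, 5.23, 5.10 and 4.201 CPM and log2 ratios of 1.58 [0.95, 2.23], 0.65 [0.09, 1.17], 0.70 [0.25, 1.13] and 1.07 [0.68, 1.44]. In fibroblasts the library labelled DCKO stood highest, with 5.96, 5.14, 6.31 and 11.6 CPM over the libraries.

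Slc2a9 (ENSMUSG00000005107, chr5:38349273-38503143, minus strand), which encodes the urate carrier Glut9, was nearly absent, with 1, 2, 8 and 2 UMIs in limb mesenchyme. No difference was detectable at this depth.

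**Figure D4:**
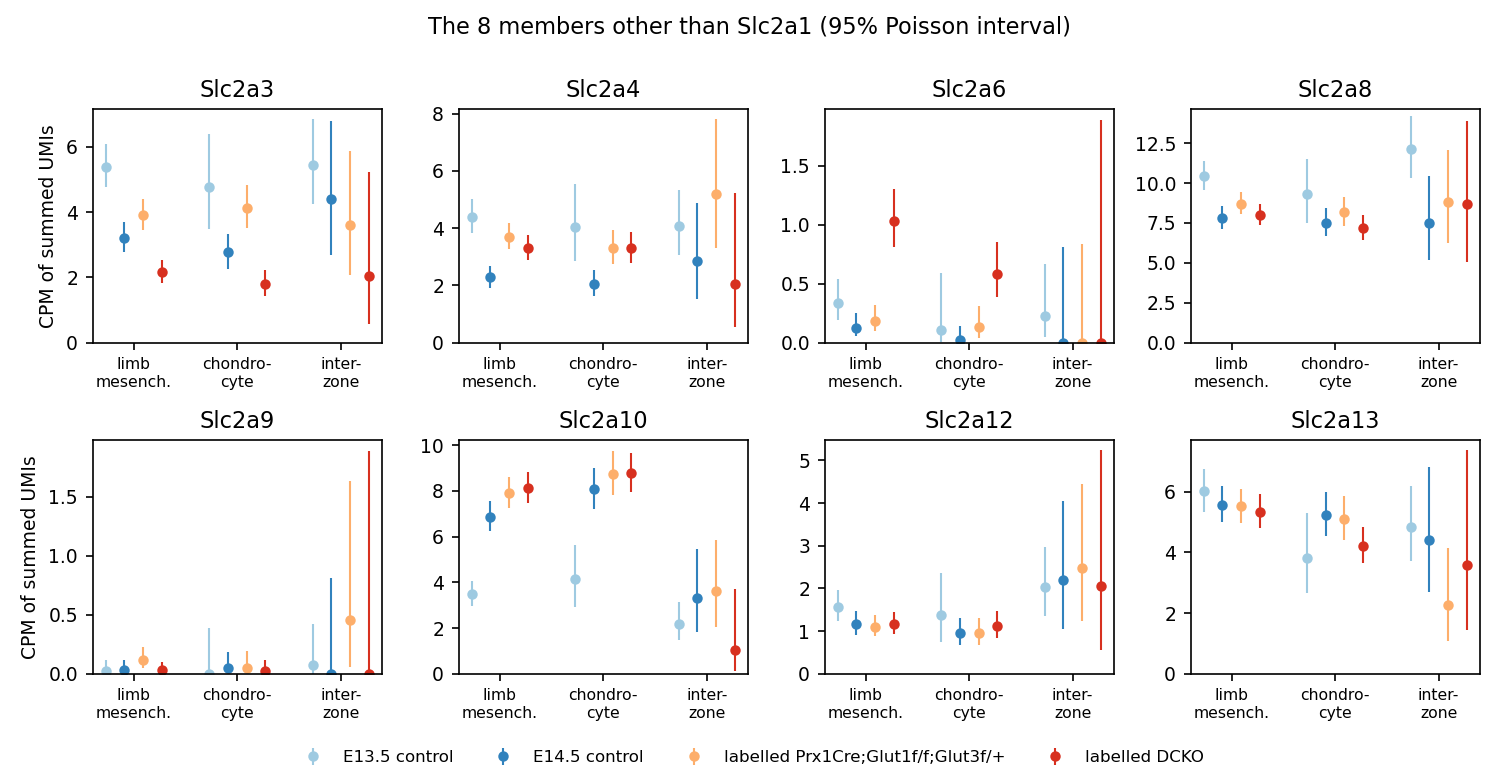
Levels of the 8 members other than Slc2a1 (CPM of summed UMIs, an axis of its own for each) in limb mesenchyme, chondrocytes and interzone cells, with 1 point per library and bars for the 95% Poisson interval. In limb mesenchyme Slc2a6 is highest in the library labelled DCKO (1.03 CPM), Slc2a3 is lowest there (2.17 CPM), and Slc2a10 is lowest at E13.5 (3.48 CPM).

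Taking the 7 members other than Slc2a1 and Slc2a3 as a sum, limb mesenchyme had 26.3 CPM [24.8, 27.8], 23.9 CPM [22.7, 25.1], 27.3 CPM [26.0, 28.5] and 27.0 CPM [25.8, 28.2]. The mutant libraries were alike and slightly above the E14.5 control, and both overlapped with the E13.5 control. The log2 ratio was 0.18 [0.08, 0.28] for the library labelled DCKO, or 0.37 with TMM factors, and 0.19 [0.09, 0.29] for the library labelled Prx1Cre;Glut1f/f;Glut3f/+. Chondrocytes had 22.8, 23.9, 26.4 and 25.2 CPM of these members, with a log2 ratio of 0.08 [-0.05, 0.20] for the library labelled DCKO, or 0.23 with TMM factors, and prehypertrophic chondrocytes 34.9, 24.6, 31.4 and 33.7 CPM, with 0.45 [0.13, 0.79], or 0.66 with TMM factors.

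The difference in this sum was small beside that of Slc2a1. All 9 members together had 94.3, 100.4, 432 and 494 CPM, and Slc2a1 made up 66.4%, 73.0%, 92.8% and 94.1% of these UMIs. In muscle its share was 57.1%, 65.7%, 61.0% and 83.3%, the last including the cell named above. A rise of other members beside a fall of Slc2a1 mRNA was not seen, since Slc2a1 mRNA was higher in every limb class of the libraries labelled as mutant.

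Between the controls, E14.5 against E13.5, the question is how the family differed with age. These libraries also differed in sex-linked transcripts, so that "with age" names the comparison and not a tested cause. In limb mesenchyme 0 of 7 members with 20 UMIs were past 2-fold in either direction, against 4.39% of genes higher and 7.65% lower. Slc2a10 came closest from below, with a log2 ratio of 0.98 [0.72, 1.25], and Slc2a4 fell by 0.95 on the log2 scale, Slc2a3 by 0.74 and Slc2a8 by 0.42.

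Slc2a1 had a log2 ratio of 0.23 [0.16, 0.29] with age in limb mesenchyme and 0.04 [-0.07, 0.16] in chondrocytes, or 0.38 and 0.20 with TMM factors, and -0.25 [-0.49, -0.01] in interzone cells, and chondrocytes went from 9.22% to 46.6% of the kept cells. The sum of the 7 other members had a log2 ratio of -0.14 [-0.25, -0.03] by CPM, a direction that flips to 0.016 with TMM factors and 0.029 with median-of-ratios factors, where the median of all genes was -0.16 by CPM. The CPM values with age use the controls alone, whereas the TMM and median-of-ratios factors were estimated over all 4 libraries.

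The study compared interzone cells with chondrocytes in tissue and culture, and with all other clusters in its scRNA-seq gene lists. It reports no significant increase of Glut1 mRNA over chondrocytes, but more Glut1 protein in the presumptive knee joint by immunostaining at E13.5. The ratios here are of mRNA between marker-gated classes and do not speak to protein or glucose uptake. Slc2a1 mRNA was lower in interzone cells than in chondrocytes in every library, with log2 ratios of -0.72 [-0.88, -0.57], -1.02 [-1.24, -0.81], -1.51 [-1.61, -1.40] and -1.49 [-1.65, -1.34]. Slc2a3 gave 0.19 [-0.37, 0.76], 0.67 [-0.10, 1.37], -0.19 [-1.03, 0.56] and 0.19 [-1.72, 1.60], with no difference beyond counting error in any library. In interzone cells Slc2a3 had 5.44, 4.40, 3.62 and 2.04 CPM. Interzone cells of the library labelled DCKO numbered only 321, and 4 of the members reached 20 UMIs there or in the E14.5 control.

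Across 34 sums of a class in a library with at least 50 cells, the genes whose log2(CPM + 1) followed Slc2a1 most closely, of 9581 genes, were Adm2 (a peptide hormone, Pearson r = 0.81), Asns (asparagine synthetase, 0.80), Pck2 (mitochondrial phosphoenolpyruvate carboxykinase, 0.76), Car9 (a carbonic anhydrase induced by hypoxia, 0.76) and Aldh1l2 (mitochondrial folate metabolism, 0.75). Asns for example had 42.0, 42.5, 119 and 222 CPM in chondrocytes and 17.4, 15.1, 22.7 and 21.8 CPM in muscle. For Slc2a3 the closest were Gatb (0.74), Adssl1 (0.72), Ifitm1 (0.72), Rbl1 (0.71) and Sgpl1 (0.70). The sums share libraries and depth, and these values describe likeness of pattern alone.

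Genes that act with the transporters were read as lists in limb mesenchyme of the library labelled DCKO against the E14.5 control, by counts past 2-fold beside 1.82% of all 15012 genes higher and 5.0% lower, and by their median log2 ratio beside -0.20 for all genes. Of 18 other carriers of hexoses and sugar phosphates, 6 had 20 UMIs, with 0 higher, 1 lower and a median of -0.00. Slc2a5, the fructose carrier, went from 0.367 to 0.172 CPM with a log2 ratio of -1.09 [-2.23, -0.02], and Slc45a3 had 0.58 [-0.31, 1.51]. Of 10 genes of glucose phosphorylation and the polyol pathway, 8 had 20 UMIs, 0 passed 2-fold in either direction and the median was -0.10. Hk2, a hexokinase, went from 118 to 144 CPM, with a log2 ratio of 0.29 [0.24, 0.33], and Sord, which turns sorbitol into fructose, from 7.42 to 3.72 CPM.

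Among 22 genes of glucose sensing and transporter trafficking, 0 were higher and 2 lower past 2-fold, with a median of -0.09. The pair were Txnip and Arrdc4, arrestins that are induced by glucose and draw Glut1 from the surface. Txnip had 13.2, 23.8, 2.93 and 2.83 CPM, and Arrdc4 went from 11.4 CPM in the E14.5 control to 2.51 and 2.18 CPM. Txnip thus was low in both mutant libraries and high in both controls, with log2 ratios of -3.07 [-3.29, -2.86] and -3.02 [-3.24, -2.81] for the libraries labelled DCKO and Prx1Cre;Glut1f/f;Glut3f/+. Arrdc4 had -2.39 [-2.65, -2.13] and -2.18 [-2.43, -1.94].

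Lists of stress responses were read in the same way, and differences between lists were not tested. Of 16 ATF4 targets, genes of the response to amino acid shortage and other stress, 11 were past 2-fold higher and 0 lower, with a median of 1.39. Stc2 went from 2.07 to 19.6 CPM, Nupr1 from 19.0 to 176 CPM and Asns from 43.3 to 219.8 CPM. Of 12 chaperones and other genes of endoplasmic reticulum stress, several of which are known as glucose-regulated proteins, 5 were higher and 0 lower, with a median of 0.97 and the largest log2 ratios in Sdf2l1 (2.23), Creld2 (1.92) and Herpud1 (1.56). Of 22 targets of the hypoxia-inducible factor HIF, 2 were higher, Car9 (1.40) and Adm (1.12), and 0 lower, with a median of 0.31. Of 13 carriers of other fuels, 1 was higher, Slc1a4 (1.33), a carrier of neutral amino acids, and 0 lower, with a median of 0.00.

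Set against the same control, the E14.5 library with the label Prx1Cre;Glut1f/f;Glut3f/+ had 7 of 16 ATF4 targets past 2-fold higher with a median of 0.67, 0 of 12 genes of endoplasmic reticulum stress with a median of 0.26, and 2 of 22 HIF targets with a median of 0.28, all beside a median of -0.09 for all 15084 genes, of which 1.62% were past 2-fold higher and 1.29% lower. Car9 stood at 34.2 CPM in it and at 20.1 CPM in the library labelled DCKO, against 7.59 CPM in the E14.5 control. Hk2 stood at 199 CPM. Car9, Adm and Hk2 were highest in the library with 1 Glut3 allele labelled intact, whereas Sdf2l1, Nupr1 and Stc2 were highest in the library labelled DCKO. Between the mutant libraries, 0 of 22 HIF targets were past 2-fold in either direction, with a median of -0.02 beside -0.11 for all genes. The ATF4 and endoplasmic reticulum stress lists had 2 of 16 and 2 of 12 higher under the label DCKO. Their medians were 0.78 and 0.79, with 0 lower. Of all genes 0.783% were past 2-fold higher and 3.34% lower.

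Most cells of these sums are chondrocytes, and interzone cells were read by median alone, with the difference between classes not tested. In interzone cells of the library labelled DCKO the medians were 0.62 for 13 ATF4 targets, 0.29 for 12 genes of endoplasmic reticulum stress and -0.21 for 20 HIF targets, beside -0.11 for all 10500 genes. With the label Prx1Cre;Glut1f/f;Glut3f/+ the medians of the 3 lists were -0.06, -0.30 and -0.15 beside -0.12 for all 10708 genes. In limb mesenchyme of the controls, E14.5 against E13.5, 2 of 22 HIF targets were past 2-fold higher with a median of 0.35 and 4 of 16 ATF4 targets with a median of 0.34, with 0 lower in both lists, beside a median of -0.16 for all 15072 genes, of which 4.39% were past 2-fold higher and 7.65% lower.

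Promoters are shown for Slc2a1 and Slc2a6, the members past 2-fold higher in limb mesenchyme of the library labelled DCKO. A sequence before the gene start was on hand for 7 of the 9 members (RefSeq, build GRCm38.p6), and the core of the motif bound by HIF and by related factors, ACGTG, was searched on both strands, where its reverse complement reads CACGT. It was present in 1 of the 7, Slc2a1, and in 16.6% of 32851 promoters of 250 bases, 5444 in all. The match in Slc2a1 begins at -36 from the RefSeq start and is in capitals. The annotated gene in GENCODE begins earlier than the RefSeq start, at chr4:119108711. That position is within the match, so the last bases of the match lie inside the annotated gene. The sequence is shown to 5 bases past that beginning. The RefSeq start also lies inside the annotated gene for Slc2a9, whose window is wholly within the gene, and for Slc2a10, whose window is partly so. A match is a description of the letters in this window.
Slc2a1, chr4:119108495-119108715, plus strand: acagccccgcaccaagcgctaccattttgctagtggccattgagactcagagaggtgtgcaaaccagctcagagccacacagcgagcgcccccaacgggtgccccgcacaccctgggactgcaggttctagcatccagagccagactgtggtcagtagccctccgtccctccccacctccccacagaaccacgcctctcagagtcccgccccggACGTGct
Slc2a6, chr2:27027999-27028248, minus strand, no match: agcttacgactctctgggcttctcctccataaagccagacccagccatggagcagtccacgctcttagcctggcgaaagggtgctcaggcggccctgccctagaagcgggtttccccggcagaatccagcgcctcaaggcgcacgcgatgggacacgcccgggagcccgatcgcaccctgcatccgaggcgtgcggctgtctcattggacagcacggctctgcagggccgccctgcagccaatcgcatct

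By GENCODE vM21, exons of Slc2a1 overlap Gm12868 and exons of Slc2a12 overlap Tbpl1, each on the opposite strand, and no member shares exon sequence with a gene on its own strand. The 3' kit marks the strand of the mRNA.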

How the data were processed

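The 4 libraries were made by the submitters with the 10x 3' v3.1 kit from collagenase-digested tissue. Per the file headers the deposited counts are UMI counts from Cell Ranger 6.1.2 on mm10, 1 matrix per library with 32285 genes, not normalized, and the submitters' notes name Seurat 3 for later steps that left no values in these files. The matrices held 0 columns of other samples. Kept cells had between 200 and 6000 genes and no more than 10% mitochondrial UMIs. These limits removed 183, 89, 80 and 67 cells for too many genes, 27, 94, 112 and 66 for too few and 119, 226, 264 and 175 for mitochondrial UMIs, and a cell could fail more than 1 of them. Genes were matched by identifier to GENCODE vM21, which holds 32158 of them (99.6%).

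Classes were set by marker lists. A cell needed a UMI of at least 3 of 8 interzone markers with Gdf5 among them, 8 of 11 chondrocyte, 3 of 5 prehypertrophic (taking precedence over chondrocyte), 3 of 7 osteogenic, 5 of 8 fibroblast with Dcn among them, 3 of 6 tendon, 3 of 9 skeletal muscle, 4 of 8 endothelial, 3 of 8 macrophage or 5 of 11 erythroid markers. The numbers needed were chosen after marker detection had been seen. Cells passing 2 or more gates (890, 770, 1059 and 634) were left out, and 5806, 2224, 3357 and 3689 cells passed no gate. Many cells lay near a limit: in the library labelled DCKO 335 of 596 prehypertrophic cells had just the number of markers needed and 1483 cells had 1 fewer. Among its top 10 genes by fold the chondrocyte gate had 0 to 2 of its own markers, the fibroblast gate 1 (with 1 tendon marker at E13.5), the interzone gate 1 or 2 (with 1 mural marker in both mutant libraries) and the prehypertrophic gate 2 or 3 (with 2 chondrocyte markers at E13.5, and 1 in the E14.5 control and under the label Prx1Cre;Glut1f/f;Glut3f/+). No doublet caller was run, and no class was set for glial, epidermal or mural cells.

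Levels are CPM of summed UMIs with exact Poisson intervals, ratios have exact conditional intervals, and shares of cells exact Clopper-Pearson ones, all at 95%. A count of 0 was given the limit of 3 counts. Genes counted as past 2-fold had at least 20 UMIs in 1 of the sums. The comparisons were each mutant library against the E14.5 control, the mutant libraries against each other, the E14.5 against the E13.5 control, and class against class within a library. With 1 library per condition no test was made. The members and lists were chosen with earlier results from these data known. Named genes are all 9 members, up to 3 higher and 3 lower genes of each list by size of ratio in limb mesenchyme of the library labelled DCKO, and the 5 genes most like Slc2a1 or Slc2a3 among those with 20 CPM in a sum. Col2a1, Col10a1, C1qc and Xist were named after their values were seen.

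The alternatives were stricter and looser gates, a stricter cell filter (1000 genes, 5% mitochondrial UMIs), cells of several gates kept, TMM and median-of-ratios factors, a mean over cells, a total without the most abundant gene groups, other UMI minimums and thinning depths, and 3 added after seeing the data. Python 3.11.15 with numpy 2.4.6, pandas 2.3.3 and scipy 1.17.1 was used, and R 4.3.3 with edgeR 4.0.16 for TMM factors alone. The computation of ratios was tested on simulated counts with known folds.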

Additional observations from a re-analysis of the deposited data

Results flagged for a closer look

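For 2 members the log2 ratio had an interval wholly on one side of 0 in 1 cell class and wholly on the other side in another class, under the same comparison. Slc2a3 in the library labelled DCKO against the E14.5 control was at -0.62 [-1.05, -0.20] in chondrocytes and at 1.21 [0.41, 2.06] in fibroblasts. Against the library labelled Prx1Cre;Glut1f/f;Glut3f/+ it was at -1.20 [-1.60, -0.81] in chondrocytes and -1.85 [-3.23, -0.62] in prehypertrophic chondrocytes but at 1.68 [0.93, 2.46] in fibroblasts. Both fibroblast values rest on 1 cell with 33 of 41 UMIs, and without the top cell of each sum they were -0.99 [-2.40, 0.28] and -0.61 [-1.98, 0.59]. Slc2a13 in the library labelled DCKO against the E14.5 control was at -0.32 [-0.61, -0.02] in chondrocytes and at 1.18 [0.27, 2.14] in fibroblasts, where 32 UMIs came from 30 cells. With TMM factors the chondrocyte value was -0.16, a shift larger than the distance of its interval from 0, so that this contrast depends on scaling. The differences between classes were not tested.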

How the results depend on the processing

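Of 5795 values from recomputing 627 results under the alternatives, 5131 stayed within the counting interval of the reported value, 649 moved beyond it and 15 changed sign where that interval excluded 0. These totals include the shares of genes past 2-fold, which have no interval: 8 stayed within 1.5-fold of the reported share and 22 did not. They also include values that a setting shifts by construction. Shares of cells with a Slc2a1 UMI change with thinning depth, and all of them moved, 8 in limb mesenchyme and 16 in chondrocytes and interzone cells. Levels in CPM rise when genes are left out of the total. No paired analysis was possible because each condition had 1 library. For the values below, the cause was not tested. Leaving out the top cell of each sum, taking as limb mesenchyme all kept cells with no gate of another lineage, and asking for at least 2 Gdf5 UMIs were chosen after seeing the data.

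Slc2a1 in limb mesenchyme of the E14.5 control (73.3 CPM) was 71.0 with looser gates, 101 with Slc2a1, mitochondrial, hemoglobin and ribosomal protein genes left out of the total, and 67.4 in all kept cells with no gate of another lineage. In the library labelled DCKO (465 CPM) it was 473 with stricter and 455 with looser gates, 520.6 with TMM and 524 with median-of-ratios factors, 440.5 as a mean over cells, 683 with the reduced total and 437 in all kept cells. Its log2 ratio of 2.67 became 2.86 with TMM, 2.87 with median-of-ratios factors, 2.56 as a mean over cells and 2.75 with the reduced total. For the library labelled Prx1Cre;Glut1f/f;Glut3f/+, 2.45 became 2.53, 2.53, 2.29 and 2.52 under these settings. Between the mutant libraries 0.22 became 0.33 with TMM, 0.33 with median-of-ratios factors, 0.27 as a mean over cells and 0.27 in all kept cells. With age 0.23 became 0.15 with stricter and 0.31 with looser gates, 0.38 with TMM, 0.39 with median-of-ratios factors, 0.30 as a mean over cells and 0.42 in all kept cells.

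Slc2a3 in limb mesenchyme of the library labelled DCKO went from -0.57 to -0.91 without the top cells, and against the other mutant library from -0.85 to -0.55 as a mean over cells. In fibroblasts it changed sign against the E14.5 control, to -1.92 with looser gates and -0.99 without the top cells, and against the other mutant library, to -1.56 and -0.61. The sum of the 7 other members went from 0.18 to 0.37 with TMM and 0.38 with median-of-ratios factors in the library labelled DCKO, from -0.01 to 0.10 and 0.10 between the mutant libraries, and with age it changed sign from -0.14 to 0.016 and 0.029. Fibroblasts against chondrocytes in the library labelled DCKO gave -0.030 with TMM and -0.031 with median-of-ratios factors for this sum, against 0.36 by CPM. All 9 members in muscle gave -0.0088 against the E14.5 control and -0.064 against the other mutant library without the top cells.

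Looser gates turned the ratio of prehypertrophic chondrocytes with age to 0.28 for Slc2a1 and 0.17 for all 9 members, their ratio to chondrocytes at E13.5 to -0.10 and -0.043, and that of Slc2a3 in the library labelled DCKO to 0.30. Slc2a1 in interzone cells against chondrocytes in the E14.5 control went from -1.02 to -1.28 with TMM, -1.30 with median-of-ratios factors and -0.79 with 2 Gdf5 UMIs. In the E14.5 library labelled Prx1Cre;Glut1f/f;Glut3f/+ it went from -1.51 to -1.40 with stricter gates, -1.67 with looser gates, -1.33 with cells of several gates kept, -1.77 with TMM, -1.78 with median-of-ratios factors and -1.64 as a mean over cells. In the library labelled DCKO it went from -1.49 to -1.30 with cells of several gates kept, -1.83 with TMM, -1.85 with median-of-ratios factors and -1.75 with 2 Gdf5 UMIs. The excess of limb mesenchyme over muscle in that library went from 1.64 to 2.54 without the top cells, and the excess over other lineages from 0.997 to 0.56 with cells of several gates kept.

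Shares of limb mesenchyme cells with a Slc2a1 UMI were 5.77%, 7.06%, 27.5% and 32.8% at 1000 UMIs per cell and 19.7%, 23.96%, 63.7% and 72.6% at 4000. The share of genes past 2-fold depended on the UMI minimum. With at least 1 UMI and with at least 100 UMIs it was 9.31% and 0.922% up and 14.6% and 2.72% down in limb mesenchyme of the library labelled DCKO, 15.3% and 2.06% up and 16.4% and 2.87% down in its prehypertrophic chondrocytes, 10.3% and 0.719% up and 9.95% and 0.482% down for the E14.5 library with the label Prx1Cre;Glut1f/f;Glut3f/+, and 7.45% and 0.295% up and 14% and 1.43% down between the mutant libraries. With age it was 12.3% up and 15.9% down with 1 UMI and 4.95% down with 100 UMIs. TMM factors gave 2.74% up and 3.14% down in limb mesenchyme of the library labelled DCKO and 3.47% down in its prehypertrophic chondrocytes.

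Depth limits the scarce members most. Slc2a6 and Slc2a9 were at 0 UMIs in 16 and 26 of 34 sums of a class in a library, and at E14.5 no member other than Slc2a1 reached 20 UMIs in muscle, endothelial or blood cells of any library. No interval includes variation between embryos, litters or preparations.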
